A study of Mus musculus with 7 samples.

Results

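The 27 genes described here encode enzymes, regulators and a transporter of sterol and fatty acid synthesis. They were chosen by gene name and not by a rule on their values, although earlier results of these data were known. All 27 were found by Entrez identifier among the 27179 genes of the count files, and all 27 were among the 12303 genes that passed the filter on low counts and were tested. By role, 16 make sterols (7 from acetoacetyl-CoA to farnesyl diphosphate and 9 from squalene to cholesterol), 4 regulate the pathway or carry sterols, and 7 make or modify fatty acids.

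RNA-seq read counts were available for 7 lymphoma cell lines, 3 of them Smchd1 wild-type and 4 Smchd1 null. Every line came from an end-stage lymphoma of a male C57BL/6 mouse, and every line, the wild-type ones included, carried the Eµ-Myc transgene, in which the immunoglobulin heavy chain enhancer drives Myc in B lineage cells. The null lines were mutant for Smchd1, an SMC family protein of silent chromatin. The labels call them gene trap homozygotes, whereas the methods of the study name the allele Smchd1MD1/MD1, and which description holds was not settled here. Each line was 1 library, so the replicates of a group are different lines. Wild-type line 1 was the single library of batch 1 and the single one read single-end, whereas the other 6 were batch 2 and paired-end. Batch, read layout and line therefore cannot be told apart for wild-type line 1.

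Cholesterol and its precursors are made from acetyl-CoA through the mevalonate pathway, and fatty acids from the same acetyl-CoA through malonyl-CoA. The transcription factors SREBP-1 and SREBP-2, products of Srebf1 and Srebf2, switch on most enzymes of both routes when membrane sterol is low. INSIG proteins hold the SREBP precursors in the endoplasmic reticulum when sterol is high, and the gene for INSIG-1 is itself an SREBP target. SREBPs bind sterol regulatory elements, commonly beside CCAAT boxes bound by NF-Y.

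Promoter sequences from RefSeq (GRCm38.p6) matched 21 of the 27 genes by symbol. The 4 printed here are the 250 bases before the start site of Hmgcs1, the gene with the widest range over the 7 lines, of Msmo1 and Cyp51, the sterol enzymes closest to the mean of their group over lines, and of Fasn, whose highest line was 1.23-fold above its lowest. Hmgcs1 lies at chr13:119690101-119690350 on the plus strand, Msmo1 at chr8:64733579-64733828 on the minus strand, Cyp51 at chr5:4104698-4104947 on the minus strand and Fasn at chr11:120824548-120824797 on the minus strand. Each is written 5′ to 3′ along its gene, with matches to the sterol regulatory element letters TCACNCCAC or CACCCCAC and to CCAAT, on either strand, in capitals.
Hmgcs1: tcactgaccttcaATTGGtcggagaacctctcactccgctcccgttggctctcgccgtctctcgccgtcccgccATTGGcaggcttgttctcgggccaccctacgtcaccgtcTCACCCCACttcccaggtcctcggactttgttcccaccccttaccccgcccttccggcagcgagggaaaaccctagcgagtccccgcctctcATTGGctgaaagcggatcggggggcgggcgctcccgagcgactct
Msmo1: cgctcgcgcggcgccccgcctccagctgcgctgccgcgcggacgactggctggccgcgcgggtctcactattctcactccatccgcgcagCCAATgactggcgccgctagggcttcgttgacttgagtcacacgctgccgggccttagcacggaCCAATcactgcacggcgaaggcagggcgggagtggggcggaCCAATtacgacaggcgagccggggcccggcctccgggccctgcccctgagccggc
Cyp51: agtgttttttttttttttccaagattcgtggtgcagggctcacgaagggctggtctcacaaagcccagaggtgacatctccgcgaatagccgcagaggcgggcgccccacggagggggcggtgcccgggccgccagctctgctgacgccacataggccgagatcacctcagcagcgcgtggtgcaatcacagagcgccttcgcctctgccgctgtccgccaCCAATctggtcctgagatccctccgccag
Fasn: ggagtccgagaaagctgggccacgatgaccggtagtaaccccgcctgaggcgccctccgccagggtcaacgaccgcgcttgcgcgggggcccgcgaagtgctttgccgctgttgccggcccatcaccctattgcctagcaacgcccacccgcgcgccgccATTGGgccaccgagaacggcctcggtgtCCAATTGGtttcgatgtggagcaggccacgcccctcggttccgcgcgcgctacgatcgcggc

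Within the windows of 250 bases before and 50 after the start site, CCAAT was found on either strand in 18 of 21 member genes (85.7%), against 41.1% of the 27025 genes with a promoter and 43.9% of the 9307 tested ones. TCACNCCAC was found in 1 member (4.8%), Hmgcs1, against 1.4% of all genes. CACCCCAC, which overlaps TCACNCCAC in Hmgcs1, was found in 2 members (9.5%), Hmgcs1 and Acat2, against 3.3%. The GGGCGG box of Sp1 was in 81.0% of members, against 38.2% of all genes and 69.4% of tested ones, and the E-box CACGTG in 19.0%, against 8.1% and 12.3%. These are matches of letters and were not tested as binding sites. Hmgcs1 and Fasn both carried CCAAT boxes, and the sterol regulatory element letters were found in Hmgcs1 and not in Fasn. Whether such matches relate to levels over the 7 lines was not tested.

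The libraries held 3626853 to 7519549 counts, with wild-type line 1 the shallowest. Member counts ran from 18 to 19293 per library. Smchd1 itself was 232 ± 14.9 CPM (counts divided by the library total and scaled to 1000000; SD, n = 3) in wild-type lines and 26.5 ± 2.85 CPM (SD, n = 4) in null lines (two-sided exact permutation test, p = 0.0286, the smallest that 35 arrangements allow). B cell markers were read in every line, with summed levels of 1125 to 1532 CPM in wild-type and 472 to 2103 CPM in null lines, where null line 4 was the lowest. T cell markers summed to at most 0.532 CPM. Wild-type lines 2 and 3 were far closer to each other than any other pair, with a mean chi-square per gene of 3.97 where sampling noise gives about 1, against 18.2 to 71.2 in the other 20 pairs. They were kept as separate samples because the labels give them as separate replicates. Separate libraries of 1 line can also differ beyond sampling noise, and whether the lines came from separate mice is not given in the sources used here, so p-values measure the spread between these samples only. With wild-type lines 2 and 3 summed into 1 sample, 0 of the 27 genes passed the limma test described for the genotypes, and 1 had an unadjusted p below 0.05. Over all 12303 genes tested, 1 passed in that fit, so the 0 is not particular to the 27 genes.

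The most visible feature of the 27 genes was a low level in wild-type line 1. This library was the lowest of the 7 for 24 of 27 members (88.9%), against 23.8% of all genes tested. It lay more than 2-fold below the mean of wild-type lines 2 and 3 for 21 of 27 members (77.8%), against 14.1% of all genes, and more than 2-fold above it for 0 members, against 9.06% of all genes. The median gap of the members was -1.64 on the log2 scale (3.12-fold), compared with -0.00 for all 12303 genes. Gaps are differences of log2 CPM after TMM scaling, whereas levels are plain CPM from library totals. The lines were described and not tested, since each is 1 library. Markers of cycling cells summed to 3236 CPM in wild-type line 1, within the range of 3051 to 3787 CPM over all lines. Fibroblast markers summed to 10.2 CPM in that library, mostly Col1a1 at 5.51 CPM, and to at most 0.266 CPM in the others. Their part in the low levels was not tested.

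**Figure D1:**
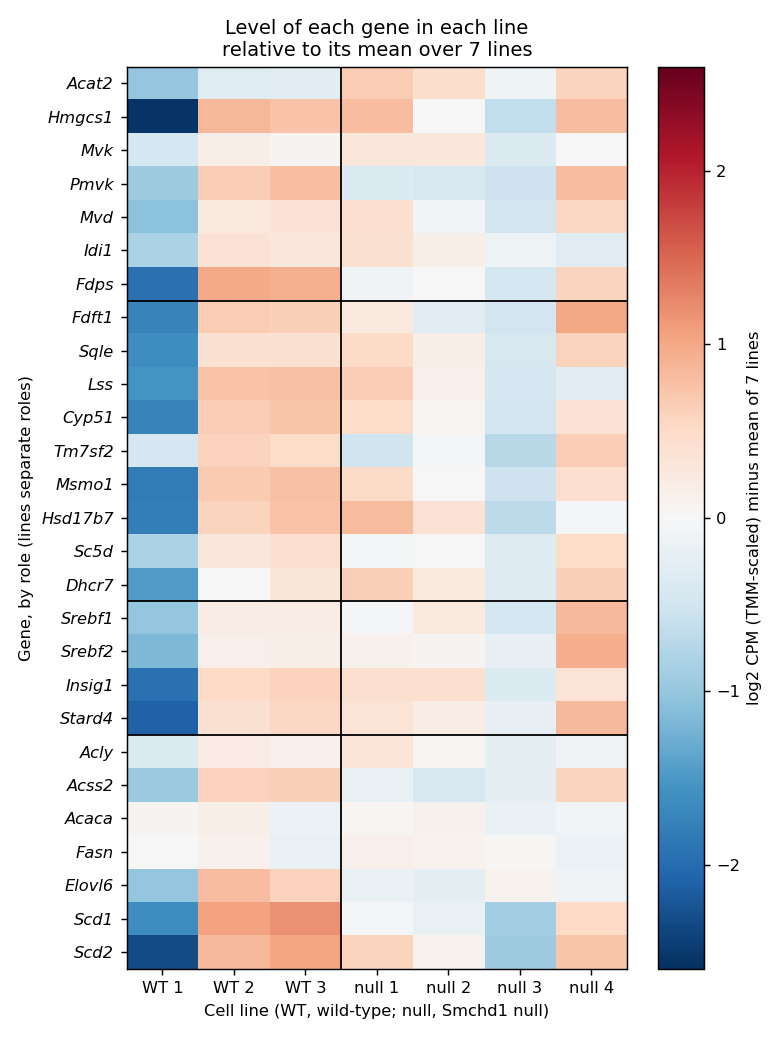
Heat map of the 27 genes (rows, grouped by role) in the 3 wild-type and 4 Smchd1 null lines (columns), coloured by log2 CPM after TMM scaling minus the mean of the 7 lines. Wild-type line 1 is below the mean for 26 of 27 genes, with Fasn close to 0 and Acaca above it, and null line 3 is below the mean for 25 of 27.

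The early sterol enzymes carry acetyl units to farnesyl diphosphate. Hmgcs1, the cytosolic HMG-CoA synthase, was at 46.6, 479 and 439 CPM in wild-type lines 1, 2 and 3 and at 457, 264, 167 and 476 CPM in null lines 1 to 4. It had the widest range of any member, 10.3-fold between the highest and the lowest line, and wild-type lines 2 and 3 were 10.2-fold above line 1. Counting error was small beside this, the 169 reads of wild-type line 1 giving a 95% Clopper-Pearson interval of 39.8 to 54.2 CPM. Fdps, farnesyl diphosphate synthase, was at 18.7, 138 and 132 CPM in the wild-type lines and at 64.3, 68.9, 50.2 and 106 CPM in the null lines. The null lines lay between wild-type line 1 and the other wild-type lines, which were 7.45-fold above line 1. Pmvk, phosphomevalonate kinase, was at 30.3, 86.8 and 95.7 CPM in wild-type and at 42.9, 41.9, 38.0 and 99.7 CPM in null lines. Null line 4 was just above wild-type lines 2 and 3, and the other null lines were nearer to wild-type line 1. Mvd, mevalonate diphosphate decarboxylase, ranged from 22.3 to 67.6 CPM, and Idi1, the isopentenyl diphosphate isomerase, from 98.7 to 218 CPM. Mevalonate kinase, Mvk, varied least of the sterol genes, between 18.5 and 30.2 CPM, and its gap in wild-type line 1 was 1.50-fold.

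Among the late sterol enzymes the gap in wild-type line 1 had a median of -2.29 (4.89-fold), compared with -1.37 (2.59-fold) for the early ones. Squalene epoxidase, Sqle, which adds the oxygen that cyclisation needs, was at 84.6, 325 and 330 CPM in wild-type and at 346, 282, 185 and 385 CPM in null lines. Cyp51, lanosterol 14-alpha-demethylase, was at 75.3, 377 and 399 CPM in wild-type and at 333, 253, 171 and 323 CPM in null lines. Msmo1, the C4-methylsterol oxidase, was at 33.4, 180 and 191 CPM in wild-type and at 156, 113, 76.8 and 157 CPM in null lines. In all 3 genes wild-type line 1 was lowest, null line 3 second lowest, and the ranges of the groups overlapped. Fdft1, squalene synthase, ranged from 11.6 to 78.1 CPM, Lss, lanosterol synthase, from 31.2 to 148 CPM, and Hsd17b7, a 3-ketosteroid reductase, from 15.2 to 89.2 CPM. Their gaps in wild-type line 1 were 5.21-fold, 4.89-fold and 5.51-fold. Smaller gaps were measured for Sc5d, lathosterol oxidase (2.27-fold), and for Dhcr7, 7-dehydrocholesterol reductase (3.07-fold). Tm7sf2, a sterol C14 reductase, was the least abundant member per length, with a median of 4.24 RPKM (CPM divided by the gene length in kilobases) over 7 lines, and was lowest in null line 3 (3.86 CPM, 25 reads, 95% interval 2.50 to 5.70 CPM) rather than in wild-type line 1 (4.96 CPM, 18 reads, 95% interval 2.94 to 7.84 CPM). These intervals overlap. They cover counting error only.

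The regulators were also lowest in wild-type line 1. Srebf2 was at 180, 424 and 431 CPM in wild-type and at 414, 416, 333 and 773 CPM in null lines. Null line 4 was highest and wild-type line 1 lowest, and the remaining 5 lines lay between 333 and 431 CPM. Srebf1 was at 67.8, 148 and 150 CPM in wild-type and at 127, 157, 94.4 and 241.4 CPM in null lines, with the same lines at the ends. Per length, Srebf2 was 2.49 to 3.32 times Srebf1 in every line. Insig1, the sterol-sensing brake on SREBP, was at 50.5, 265 and 281 CPM in wild-type and at 245, 249, 144 and 246 CPM in null lines. Apart from wild-type line 1 and null line 3, its level stayed between 245 and 281 CPM. Stard4, a cytosolic sterol carrier, ranged from 35.8 to 278 CPM and was 5.98-fold lower in wild-type line 1 than in wild-type lines 2 and 3.

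**Figure D2:**
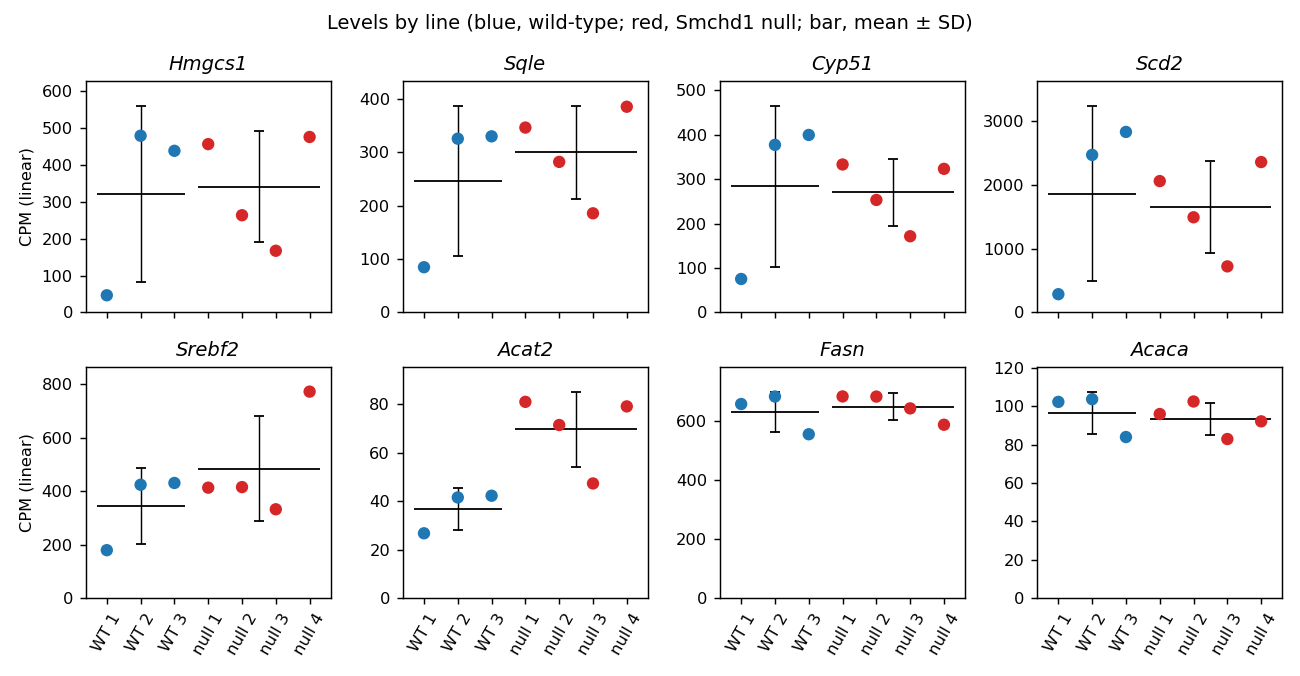
CPM on linear axes from 0 for 8 of the genes in each line, wild-type in blue and Smchd1 null in red, with the group mean (horizontal bar) and SD (error bar) for n = 3 and n = 4. Wild-type line 1 is the lowest point for Hmgcs1, Sqle, Cyp51, Scd2, Srebf2 and Acat2, whereas Fasn and Acaca differ by 1.23-fold and 1.25-fold between their highest and lowest lines.

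The fatty acid genes were divided. Fasn, the synthase that builds palmitate, was at 658, 683 and 556 CPM in wild-type and at 684, 683, 643 and 588 CPM in null lines. Acaca, the acetyl-CoA carboxylase that makes malonyl-CoA, was at 102, 104 and 84.0 CPM in wild-type and at 96.0, 103, 82.9 and 92.2 CPM in null lines. Wild-type line 1 was not the lowest for either of these genes, and wild-type lines 2 and 3 were 0.977 and 0.952 times its level. Acly, which supplies cytosolic acetyl-CoA from citrate, ranged from 523 to 809 CPM with a gap of 1.46-fold. The desaturases had large gaps like those of the sterol enzymes. Scd2, the stearoyl-CoA desaturase with the highest level per length of the 27 genes (median 377 RPKM), was at 286, 2468 and 2828 CPM in wild-type and at 2058, 1491, 722 and 2356 CPM in null lines. Scd1, its paralog and neighbour on chromosome 19, was at 130, 789 and 864 CPM in wild-type and at 369, 334, 201 and 565 CPM in null lines. For both, wild-type line 1 was lowest and null line 3 next, with gaps in wild-type line 1 of 9.63-fold and 6.62-fold. Per length, Scd2 was 1.95 to 2.90 times Scd1 in wild-type lines and 3.18 to 4.95 times in null lines, so the ratios did not overlap. This ratio was noticed after the values were seen and was not tested, and reads shared by the 2 paralogs could be split between them in counting. Elovl6, the elongase of palmitate, was at 102, 344 and 300.2 CPM in wild-type and at 173, 169, 209 and 192 CPM in null lines. Its null lines lay inside the wild-type range. Acss2, the cytosolic acetyl-CoA synthetase for acetate, was low throughout, from 7.996 to 23.3 CPM.

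A second, smaller departure was seen in null line 3, which was below each other null line for 23 of 27 members (85.2%), against 21.4% of all genes tested. The 4 exceptions were Idi1, Acss2, Fasn and Elovl6. The median difference to the mean of the other null lines was -0.69 over the members and -0.76 over the 16 sterol genes (1.69-fold), against 0.02 over all genes. The largest differences were -1.40 for Scd2, -1.18 for Hmgcs1 and -1.06 for Hsd17b7. Null line 3 was batch 2 and paired-end like the other null lines, and its total of 6474510 counts was within their range of 6225875 to 7519549. Null line 4 was the highest of the 7 lines for 9 of 27 members, against 2709 of all 12303 genes tested (TMM-scaled values). Among the 9 were Srebf1, Srebf2 and Stard4, and 0 of the 7 fatty acid genes. In plain CPM, Acss2 was also highest in null line 4, at 23.27 CPM against 23.16 CPM in wild-type line 3. Of 5 adipocyte markers 3 had a read in any line, and they summed to 0 to 11.7 CPM in wild-type and 0.618 to 151 CPM in null lines. Fabp4 made up most of this, at 0, 9.35 and 10.6 CPM in wild-type and 12.7, 35.0, 0.309 and 151 CPM in null lines. Adipoq was at most 4.29 CPM, in null line 1, and at 0 in null line 4, and Plin1 and Lep were at 0 in every line. The part of such markers in the levels of the members was not tested.

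**Figure D3:**
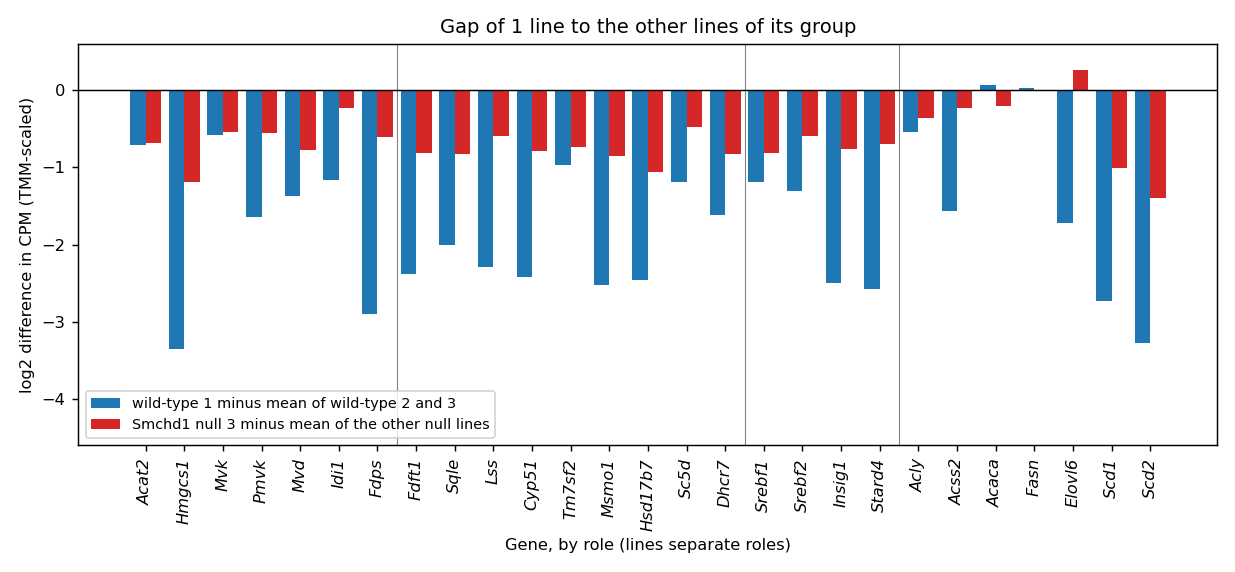
Bars give, for each gene by role, the log2 difference in TMM-scaled CPM of wild-type line 1 from the mean of wild-type lines 2 and 3 (blue) and of null line 3 from the mean of the other null lines (red). Blue bars reach -3.36 at Hmgcs1 and are close to 0 at Acaca and Fasn, and red bars run from -1.40 at Scd2 to 0.26 at Elovl6.

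Levels of the sterol genes followed one another closely over the 7 lines. Pearson r of each of the 16 sterol genes with the mean log2 CPM of the other sterol genes was at least 0.9 for 10 of them. Of all genes tested, 1.79% reached that level with the mean of the sterol genes. The median r over the 16 was 0.94, and 0.78 without wild-type line 1, with 5 genes still at 0.9 or above. Msmo1 (r = 0.995, and 0.981 without wild-type line 1), Cyp51 (0.994 and 0.976) and Hmgcs1 (0.992 and 0.968) were closest. From outside the sterol genes, Scd2 reached 0.998 with or without that line, and Insig1 reached 0.976 and 0.930. Acat2 was at 0.62 and -0.04, Acaca at -0.06 and 0.31 and Fasn at -0.13 and -0.30. These values describe 7 lines that share libraries across genes. Each sterol gene was left out of the mean it was set against. Among genes outside the list, Bik (r = 0.990), Adm (0.987), Rdh11 (0.983), Triobp (0.983) and R3hdm4 (0.981) had the highest r with the sterol mean. Bik encodes a BH3-only protein of apoptosis, Adm the peptide adrenomedullin, Rdh11 a retinol dehydrogenase and Triobp an actin-binding protein. Adm had no read in wild-type line 1, where 3 counts correspond to 0.827 CPM.

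The comparison of Smchd1 null with wild-type lines asked which genes Smchd1 regulates in these lymphomas. It was made with limma on log2 CPM, with 'voom' precision weights and 1 weight per sample, as in the methods of the study. At a false discovery rate (FDR) of 0.05, 3 of 27 members (11.1%) were differentially expressed (DE), against 11.9% of all genes tested. Higher in null lines was 1 member, against 5.06% of all genes, and 2 were lower, against 6.85%. The share of DE members was thus close to that of all genes. Sample weights were 0.246 for wild-type line 1 and 0.249 for null line 4, but 3.79 and 3.06 for wild-type lines 2 and 3, so the wild-type mean rested mostly on the latter pair.

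Acat2, the cytosolic thiolase that makes acetoacetyl-CoA at the head of the sterol route (chr17:12943042-12960725, minus strand), rose. It was at 26.7, 41.5 and 42.2 CPM in wild-type and at 80.9, 71.3, 47.3 and 79.0 CPM in null lines. The log2 fold change was 0.71 ± 0.16 (SE; limma FDR = 0.0325), with an unadjusted 95% interval of 0.34 to 1.09. All 4 null lines were above all 3 wild-type lines, and Acat2 was the single member whose groups did not overlap (3.70% of members, against 13.2% of all genes). The call was lost without null line 1, null line 2, wild-type line 2 or wild-type line 3, with log2 fold changes of 0.48 to 1.01 when single libraries were left out (limma FDR 0.0193 to 0.822). Without wild-type line 2, and likewise without wild-type line 3, 1 of all 12303 genes tested was DE.

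Pmvk (chr3:89454541-89469014, plus strand) fell by 1.00 ± 0.24 on the log2 scale (SE; limma FDR = 0.0360), and Elovl6 (chr3:129532386-129638495, plus strand) fell by 0.80 ± 0.22 (SE; limma FDR = 0.0489). For both genes the values listed above overlap between groups. Wild-type line 1 was the lowest line in each, and for Pmvk null line 4 was the highest. Pmvk was no longer DE without null line 1, 2 or 3, where its log2 fold change was -0.996, -0.945 and -0.957, or without wild-type line 2 or 3, where it was -0.36 and -0.27. Without wild-type line 2 or 3 that of Elovl6 was 0.06 and -0.05. Elovl6 was DE in 1 of the 7 fits that left out a library, the one without wild-type line 1. As stated for Acat2, the fits without wild-type line 2 or 3 each called 1 gene over the whole table. Scd1 lay just outside the threshold, with a log2 fold change of -1.28 ± 0.35 (SE; limma FDR = 0.0501), followed by Acss2 at -0.81 ± 0.23 (SE; limma FDR = 0.0538). Without wild-type line 2 or line 3 these became -0.05 and 0.01 for Scd1 and -0.23 and -0.19 for Acss2, and with 'voom' alone -0.38 and -0.26. Without wild-type line 1, which is the comparison within batch 2, 6 members were DE (22.2%, against 13.7% of all genes), namely Acat2, Pmvk, Elovl6, Scd1, Acss2 and Fdps (log2 fold change -1.06, limma FDR = 0.00943).

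Of the 24 members that were not DE, 16 had opposite signs with sample weights and with 'voom' alone, and 8 had the same sign. With sample weights 22 of 27 log2 fold changes were below 0 and the median was -0.34. With 'voom' alone 8 of 27 were below 0 and the median was 0.13, while the median over all genes was -0.01 in both fits. For the 16 sterol genes the median moved from -0.45 to 0.13, and for the 7 fatty acid genes from -0.76 to -0.04. Hmgcs1 went from -0.56 to 0.52 and Scd2 from -0.76 to 0.26, neither of which passed the test. Over all alternatives, left-out libraries included, 21 of the 24 changed sign at least once. With 'voom' alone and with edgeR 0 members were DE, against 0.0975% of all genes in each, and 1 member had an unadjusted p below 0.05 in either. DESeq2 called 1 member, Acat2 (DESeq2 FDR = 0.0464, range over alternatives 0.0193 to 0.822), against 3.12% of all genes.

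**Figure D4:**
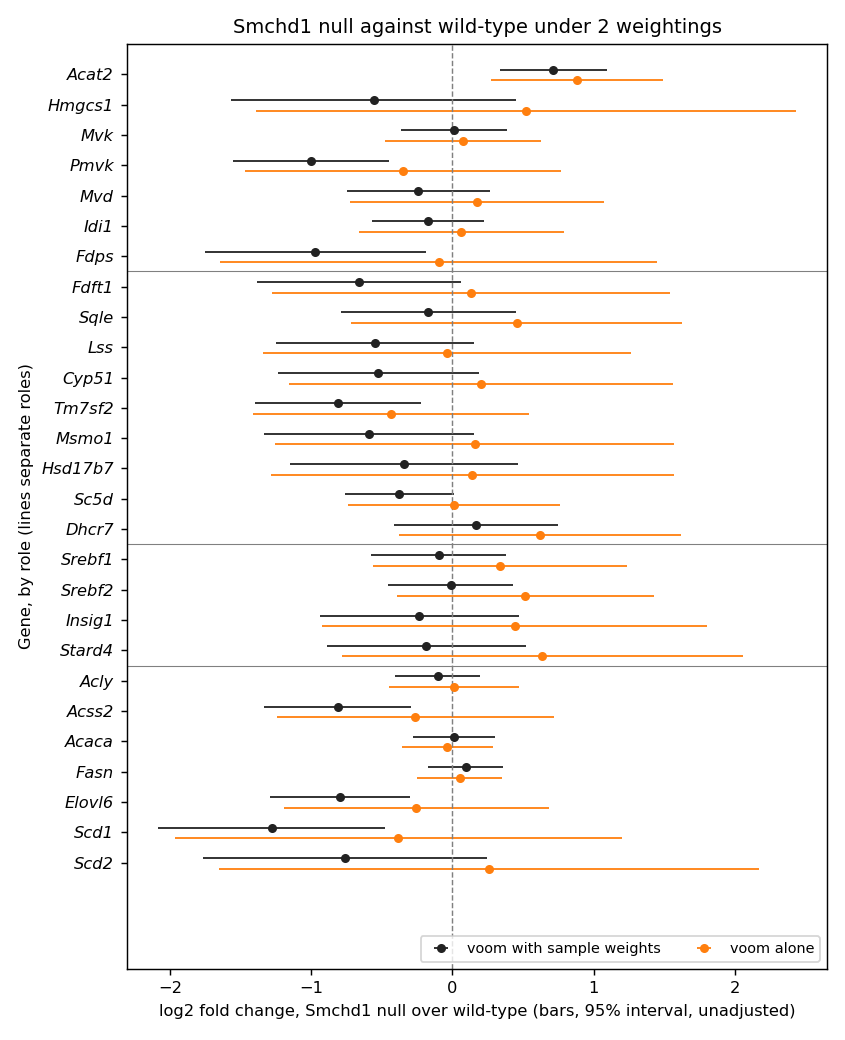
Log2 fold change of Smchd1 null over wild-type for each gene by role, with unadjusted 95% intervals, from 'voom' with sample weights (black) and 'voom' alone (orange). Black points lie below 0 for 22 genes and orange points for 8, and the orange intervals are widest for Hmgcs1 and Scd2.

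A list of 41 further genes of sterol, fatty acid and lipoprotein handling gave 37 tested genes, of which 2 rose and 4 fell in the same fit (16.2% in all, against 11.9% of all genes tested, 5.06% higher and 6.85% lower). With 'voom' alone and edgeR 0 of the 37 were DE (3 and 2 with an unadjusted p below 0.05), against 0.0975% of all genes in each, and with DESeq2 2 were (5.41%, against 3.12%). Mid1ip1, which promotes acetyl-CoA carboxylase assembly, was at 26.2, 7.71 and 10.1 CPM in wild-type and at 105, 39.2, 84.6 and 169 CPM in null lines (log2 fold change 2.91 ± 0.46, SE; limma FDR = 0.0124). Hsd17b12, the reductase of fatty acid elongation, was at 56.0, 59.0 and 57.6 CPM against 88.7, 83.4, 71.2 and 112 CPM (log2 fold change 0.52 ± 0.11, SE; limma FDR = 0.0235). For both genes every null line was above every wild-type line. Groups did not overlap, in either direction, for 13.2% of all genes tested. In the same list Gpam, which was not DE (limma FDR = 0.0578), had every null line below every wild-type line. Insig2, the second INSIG gene, fell by 0.76 ± 0.16 (limma FDR = 0.0241), Abcg1, a sterol exporter, by 1.10 ± 0.23 (limma FDR = 0.0267), and Fads1, the delta-5 desaturase, by 1.03 ± 0.26 (limma FDR = 0.0409), each with overlapping groups. Abca1, the sterol exporter of lipoprotein formation, was called lower (limma FDR = 0.0487) although its highest level, 19.7 CPM, was in null line 4. None of these 6 calls was kept without wild-type line 2 or without wild-type line 3, and the calls of all but Mid1ip1 were also lost without null line 1 or null line 2 (highest limma FDR of each gene 0.812 to 0.967 when single libraries were left out). Without wild-type line 2, and likewise without wild-type line 3, 1 of all 12303 genes tested was called. The losses in those fits are thus not particular to these 6 genes.

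The low levels in wild-type line 1 extended to part of that list. That library was more than 2-fold below the mean of wild-type lines 2 and 3 for 15 of the 37 genes, against 14.1% of all genes tested. The median gap was -0.56, against -0.004 over all genes tested. Nsdhl, a sterol dehydrogenase, had a gap of -1.97. Scap, which escorts SREBP out of the endoplasmic reticulum, had a gap of 0.09, and Mbtps1, which cleaves SREBP, one of 0.56.

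Some counts may hold reads of neighbours, since the library kit does not mark strand and how reads in overlapping genes were assigned is not given in the sources used here. In the GENCODE annotation of the same build, 18.3% of the exonic bases of Fdft1 also belong to Ctsb on the opposite strand, which was at 121 CPM over the 7 libraries. The largest share was that of Fdps, 26.7%, with Gm43738 on the same strand. Hmgcs1 shared 12.1% with Gm48342 on the opposite strand. Neither Gm43738 nor Gm48342 is in the count files. For Tm7sf2, 12.1% of its exonic bases are shared with Vps51 on the same strand (77.3 CPM), which exceeds the level of Tm7sf2 itself in every line.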

How the data were processed

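Total RNA of the 7 lymphoma cell lines was sequenced after poly(A) library preparation that does not mark strand. The deposited values are raw counts per gene: the authors aligned reads to mm10 with Subread and summarised them by Entrez gene with featureCounts, after CASAVA 1.8.2. Gene lengths deposited beside the counts were used for RPKM only. Entrez identifiers were paired with symbols by RefSeq, for 25275 of 27179 genes.

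Genes at 0.5 CPM or more in at least 3 libraries were kept (12303), TMM-normalised, and fitted with limma 3.58.1 (voomWithQualityWeights, empirical Bayes, Benjamini-Hochberg FDR 0.05 over all genes tested) in R 4.3.3, following the methods of the study, which make limma the main test of these counts. edgeR 4.0.16 and DESeq2 1.42.0 were alternatives, beside other weights, scalings, filters and left-out libraries. Log2 levels used a prior count of 1. Totals of 3626853 to 7519549 counts make 3 counts worth 0.399 to 0.827 CPM.

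The members and lists were chosen with earlier results of these data known. Named genes were all 27 members, Smchd1, other lipid genes DE in the main comparison, the 5 genes outside the list with the highest r to the sterol mean, and cell type markers (Col1a1, Fabp4, Adipoq, Plin1, Lep) that stand beside a result, picked from the marker lists after their values were seen. Nsdhl, Scap, Mbtps1 and Gpam, and genes overlapping members, were named after their values were seen.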

Additional observations from a re-analysis of the deposited data

Results flagged for a closer look

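Dixon's test was applied within the 4 null lines to 34 genes, and 3 stood out, where chance gives about 1.7. Pmvk in null line 4 was at 99.7 CPM (log2 CPM 6.61), far above the 38.0 to 42.9 CPM of the other null lines. Insig1 in null line 3 was at 144 CPM (log2 CPM 7.19), below the 245 to 249 CPM of the others. Abca1 in null line 4 was at 19.7 CPM (log2 CPM 4.28), whereas the other null lines held 0 to 0.161 CPM.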

How the results depend on the processing

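The count of 3 DE members became 0 with 'voom' alone, block weights, edgeR or wild-type lines 2 and 3 summed, 1 with DESeq2, 5 after removal of wild-type line 1 and null line 4 or with library totals only, 6 with at least 10 counts in every sample or with batch as a covariate, and 7 at an FDR of 0.1. Leaving out 1 library at a time gave 0 to 6 DE members: 6 without wild-type line 1, 1 without null line 3, 3 without null line 4, and 0 without null line 1, null line 2, wild-type line 2 or wild-type line 3. RLE normalisation gave 3 and no filter gave 2. Over all 12303 genes tested, 1466 were DE in the main fit, 12 with 'voom' alone, 12 with edgeR and 384 with DESeq2. Without wild-type line 1 there were 1683, and 1 without wild-type line 2, without wild-type line 3 or with these summed. In these fits the count of DE members went up and down with the count over all genes. Totals over all genes are not given here for the other fits. Wild-type line 1 was all of batch 1, so the fit with batch as a covariate is not separate from the fit without that line. The median log2 fold change of the sterol genes, -0.45, ran from -0.81 to 0.40 when single libraries were left out (0.40 without wild-type line 2 or line 3) and was 0.33 with these 2 lines summed. That of the fatty acid genes, -0.76, was 0.07 without wild-type line 2 and 0.01 without wild-type line 3. Elovl6 ran from -0.86 (without null line 3) to 0.056 (without wild-type line 2), and Abca1 to 0.60 with edgeR and 0.62 with DESeq2. The cause was not tested.

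With the replicate number as a block, 0 members were DE. Deviations of same-numbered lines correlated at -0.04 on average (3 pairs, -0.20 to 0.22), and those of different numbers at 0.02 (9 pairs), so the numbers were not taken as pairing the lines. With 3 and 4 lines, and wild-type lines 2 and 3 close to each other, the genotype comparison cannot separate Smchd1 from differences between individual lines.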
